A study of Arabidopsis thaliana with 2 samples.

Results

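Transport proteins decide which sugars, ions and nitrogen compounds cross the membranes of a growing bud, and the signals of 25 such genes were compared in axillary buds of 2 auxin-resistant lines of Arabidopsis thaliana. The genes were chosen by symbol, as every probe set with exactly 1 gene whose name begins with 1 of 19 stems of plant transporter families followed by a number. This found 25 genes, each with 1 probe set, among the 13356 genes that have a probe set of their own in the platform's name table. Both lines are in the Col-0 background and were made by ethyl methanesulfonate mutagenesis. In axr3-1 a dominant gain-of-function mutation stabilises IAA17 (AXR3), which represses genes that respond to auxin. In axr1-12 a recessive mutation impairs AXR1, part of the RUB-activating enzyme on which auxin-dependent protein breakdown relies. Buds elongated to about 2 mm were taken from compost-grown plants kept at 21 °C in days of 16 h light and nights of 8 h, after 3 days in the cold on soil. The labels word the buds of the lines alike, and the sources used here do not say which line stands for the dormant state of the series title. One Affymetrix-type array was hybridised per line, so nothing below has a replicate check, an error or a p-value.

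By class, the 25 genes were 14 sugar transporters, all of the SWEET family, 7 cation/proton exchangers (CHX), 2 ZIP metal transporters, 1 nitrate transporter (NRT2.5) and 1 purine permease (PUP15). The other 14 stems, among them those of ABC transporters, aquaporins and ammonium, sulfate, phosphate, amino acid and potassium carriers, had no gene under such a symbol and are not analysed here. SWEET proteins are small membrane proteins that let sugars pass down their concentration gradient. Arabidopsis SWEETs fall into 4 clades: clades I and II move mainly glucose and other hexoses, clade III moves mainly sucrose, and clade IV sits in the vacuole membrane and moves fructose. In the shoot they release sucrose for loading into the phloem and hand sugar to sink tissues such as buds, flowers and seeds, and sugar supply is one of the known inputs to bud outgrowth.

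Low signals limited what could be read on these arrays. Signals under 15.4 units, the 25th percentile of both arrays pooled, were treated as equal and called the floor. The highest of 27 bacterial control probe sets with no target in the samples was 29.4 units, and no fold is given for a gene below it on either array. Of the 25 genes, 12 lay above that level on both arrays, 5 on 1 array and 8 on neither. A stricter filter, a mean log2 signal at or above the median of all 22746 probe sets, corresponds to 51.8 units, and 8 genes passed it. All 8 were SWEET genes. Signals of different probe sets depend on their probes, so each gene is compared with itself between arrays and not with other genes.

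**Figure D1:**
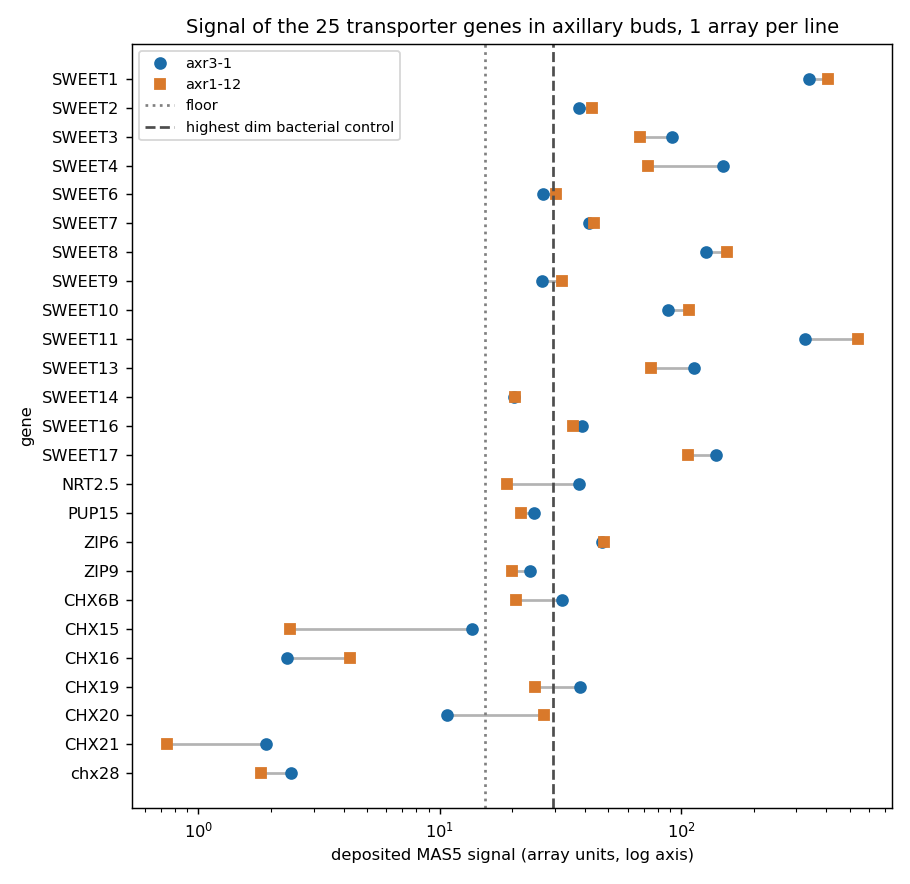
Deposited MAS5 signal in array units (log axis) of the 25 transporter genes, 1 row per gene, with a circle for the axr3-1 array and a square for the axr1-12 array; the dotted line is the floor of 15.4 units and the dashed line the highest dim bacterial control, 29.4 units. The 8 genes that passed the filter are SWEETs, SWEET4 has the widest gap of these with axr1-12 on the left, and most CHX genes lie left of the dashed line.

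The SWEET genes did not differ in one direction. Of the 8 past the filter, 4 were higher and 4 lower in the axr1-12 buds, beside 50.0% of all probe sets past the filter in each direction, and the median log2 difference was -0.09, beside 0.00 over all 11373 probe sets past the filter. SWEET4 was the only one to differ at least 2-fold, 2.07-fold lower in axr1-12. No SWEET gene was 2-fold higher, and the largest difference in that direction was SWEET11, at 1.63-fold. Over all probe sets past the filter, 3.28% were at least 2-fold lower in axr1-12 and 3.10% at least 2-fold higher. With 8 genes, 1 on the lower side and none on the higher side, the counts are too small to set the family apart from that background.

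The disagreement between probe sets of the same gene gives a partial scale for single differences. For 32 genes, 2 probe sets each passed the filter, and their log2 differences disagreed by a root mean square of 0.37. This covers differences among probes, not among plants or hybridisations. Of the SWEET genes 5 lay outside it, SWEET11 above and SWEET17, SWEET3, SWEET13 and SWEET4 below, while SWEET1, SWEET8 and SWEET10 lay inside. Of all probe sets past the filter 40.3% lay outside it, so 5 of 8 is a count to be set beside that share and not a result about SWEETs.

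In clade II, SWEET4, a hexose transporter, had 149 units in axr3-1 and 73.0 units in axr1-12. Its log2 difference was -1.05, and 2.80% of all probe sets past the filter had one as low or lower. SWEET8, also called RUPTURED POLLEN GRAIN1 for its role in pollen wall formation, went the other way by little, with 127 units in axr3-1 and 154 units in axr1-12. That is 1.20-fold higher and inside the disagreement between probe sets, so its direction is not interpreted. SWEET7 lay below the filter at 41.5 units in axr3-1 and 43.5 units in axr1-12, 1.03-fold apart. SWEET6 had 26.8 and 30.2 units, on either side of the control level. SWEET4 thus had the largest gap of the clade II genes, with the axr3-1 array the higher one.

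Clade III held the largest difference upward and one of the larger ones downward. SWEET11, which releases sucrose from phloem parenchyma cells in leaves before phloem loading, had 327 units in axr3-1 and 541 units in axr1-12. Its log2 difference of 0.70 was reached or passed by 6.99% of all probe sets past the filter. SWEET13, a sucrose transporter that also carries gibberellin, had 113 units in axr3-1 and 75.1 units in axr1-12, 1.52-fold lower. The log2 difference was -0.61, and 10.9% of probe sets past the filter were as low or lower. SWEET10, known as a gene switched on in the shoot apex at the floral transition, had 88.2 units in axr3-1 and 108 units in axr1-12, 1.21-fold higher.

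SWEET10 and SWEET13 are AT5G50790 and AT5G50800, and they stand side by side on chromosome 5 with no protein-coding gene between them in the TAIR10.1 gene order. Their differences had opposite signs, 0.27 and -0.61, the first of them inside the disagreement between probe sets. No other pair of the 25 genes was adjacent. The remaining clade III genes were dim. SWEET9, the nectary sucrose exporter, had 26.6 units in axr3-1 and 32.0 units in axr1-12, and SWEET14, the closest relative of SWEET13, had 20.2 and 20.6 units, below the control level on both arrays.

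SWEET11 is also a marker of the phloem. The list of phloem markers written down for these buds had 5 genes, and SWEET11 was the only one with a probe set under 1 gene name, so its signal could not be set beside that of other phloem genes. In whole buds, a difference in how many cells of a type are present and one in RNA per cell cannot be told apart. Other markers too count as measured only where they had a probe set under 1 gene name. For the xylem and the anther 1 marker of 6 each was measured. IRX10 of secondary walls had 105 units in axr3-1 and 90.1 units in axr1-12, and the anther regulator AMS had 46.8 and 66.5 units, 1.40-fold higher in axr1-12. The part of other cell types in the SWEET differences was not tested. Of 10 markers of the bud itself 2 were measured: LAS, needed to form axillary meristems, had 69.8 units in axr3-1 and 61.8 units in axr1-12, and CLV3, a stem cell signal, lay under the floor on both arrays. The mesophyll list had 1 measured gene of 6, the antenna protein gene LHCB4.1. It had 5706 units in axr3-1 and 2620 units in axr1-12, 2.21-fold lower in axr1-12. No gene of the root list or the epidermis list had a probe set under 1 gene name.

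In clade I, SWEET1, a plasma membrane glucose transporter, had 339 units in axr3-1 and 405 units in axr1-12, 1.18-fold higher. SWEET3 had 91.6 units in axr3-1 and 67.3 units in axr1-12, 1.38-fold lower, with a log2 difference of -0.46. SWEET2, a vacuolar sugar carrier known from roots, had 37.7 and 42.7 units and did not pass the filter. The clade thus held a small difference in each direction, and only that of SWEET3 was larger than the disagreement between probe sets.

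Clade IV holds the fructose carriers of the vacuole membrane. SWEET17 had 140 units in axr3-1 and 107 units in axr1-12, 1.33-fold lower, with a log2 difference of -0.41 just outside the disagreement between probe sets, and of -0.36, inside it, with a pseudocount of 16. SWEET16 lay below the filter at 38.9 units in axr3-1 and 35.8 units in axr1-12, a log2 difference of -0.14.

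**Figure D2:**
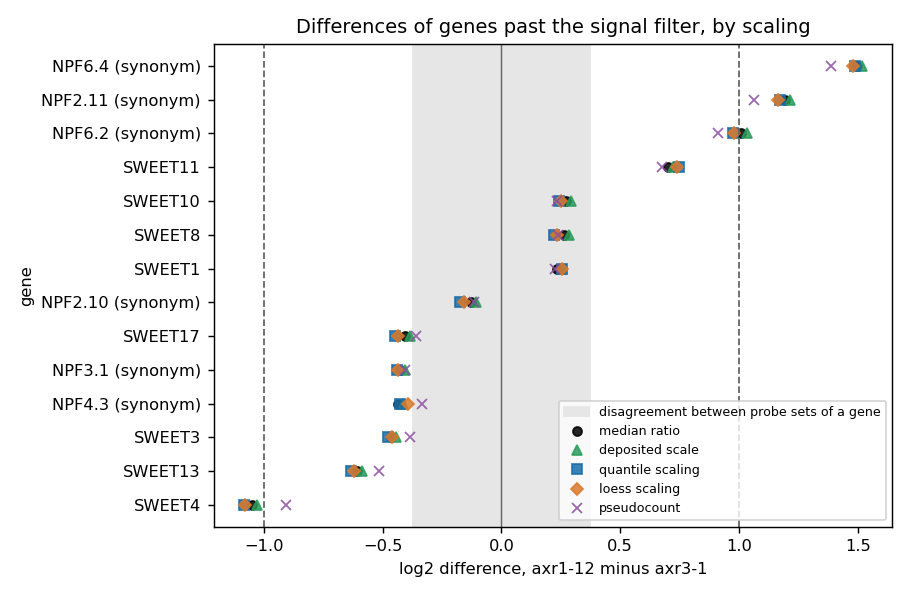
Log2 difference, axr1-12 minus axr3-1, of the 8 SWEET genes past the filter and of 6 NPF genes whose family name is a synonym only; each marker shape is 1 way of scaling the arrays or handling low signals, the shaded band is the disagreement of 0.37 between probe sets of a gene and the dashed lines mark 2-fold. No gene changes side of zero, which only quantile and loess scaling could have brought about. SWEET4 and NPF6.2 are the genes whose markers fall on both sides of a 2-fold line.

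The 7 CHX genes code for exchangers of potassium or other cations against protons in plasma and inner membranes, and many are known from pollen. None passed the filter. CHX15, CHX16, CHX21 and chx28 lay under the floor on both arrays, between 0.74 and 13.6 units, so their order has no meaning. CHX20, known for its part in guard cell opening, had 10.7 units in axr3-1, under the floor, and 27.1 units in axr1-12, still below the control level. CHX19 had 38.2 units in axr3-1 and 24.8 units in axr1-12, and CHX6B had 32.1 and 20.6 units. Both were above the control level in axr3-1 only, and no fold is given. The guard cell list had 1 measured marker of 5, FAMA, whose signals were 32.5 units in axr3-1 and 33.8 in axr1-12.

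The remaining genes carry mineral nutrients and purines. ZIP6, of a family that takes up zinc and other metals, was the one of these above the control level on both arrays, with 46.8 units in axr3-1 and 48.0 units in axr1-12, 1.01-fold apart. ZIP9, a zinc transporter gene induced by zinc deficiency, had 23.7 and 20.0 units. NRT2.5, a high-affinity nitrate transporter of nitrogen-starved plants, had 37.7 units in axr3-1 and 19.0 units in axr1-12, below the control level on the second, so no fold is given. PUP15 had 24.5 and 21.7 units. In these classes no gene passed the filter, so neither a median nor a direction can be given for them.

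The rule reads symbols, and some genes of the same families are filed under another symbol. In the RefSeq gene table, 13 further genes carry a matching name as a synonym only. They comprise SWEET5 and SWEET15 and 11 genes of the NPF family (NRT1/PTR), whose proteins carry nitrate, peptides, hormones or glucosinolates. They were added after the signals had been seen and are described only. SWEET5, listed as AtVEX1 and known from the vegetative cell of pollen, had 23.2 units in axr3-1 and 11.4 units in axr1-12. SWEET15, listed as SAG29 and known from senescing leaves and seeds, had 23.9 and 25.2 units. Both were below the control level, so the 16 SWEET genes found under either name remained at 8 past the filter.

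Of the 11 NPF genes 6 passed the filter, and 3 of them were at least 2-fold higher in axr1-12. NPF6.4 (AT3G21670) had 129 units in axr3-1 and 369 units in axr1-12, 2.82-fold higher, and 0.976% of all probe sets past the filter had a difference as high or higher. NPF2.11, listed as GTR2 and known as a glucosinolate transporter, had 88.0 units in axr3-1 and 204 units in axr1-12, 2.29-fold higher. NPF6.2 (AT2G26690), a nitrate transporter known from leaf petioles, had 108 units in axr3-1 and 220 units in axr1-12. At 2.01-fold it only just reached the threshold, and after quantile or loess scaling its log2 difference was 0.98, under 2-fold.

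The other NPF genes past the filter were slightly lower in axr1-12. NPF2.10, listed as GTR1 and the partner of NPF2.11 in glucosinolate transport, had 163 units in axr3-1 and 151 units in axr1-12, 1.09-fold lower. NPF3.1 (AT1G68570) had 305 units in axr3-1 and 230 units in axr1-12, 1.35-fold lower. NPF4.3 (AT1G59740) had 62.7 and 47.0 units, 1.35-fold lower as well. The median log2 difference of the 6 was 0.44, with 3 higher and 3 lower. It falls in the gap between NPF2.10 at -0.13 and NPF6.2 at 1.01, where no gene lies, and is not read as a shift of the family. Over all probe sets past the filter the median was 0.00, and the background share at least 2-fold higher was 3.10%. Below the filter, NPF4.1 had 33.7 units in axr3-1 and 45.2 units in axr1-12, 1.32-fold higher, and NPF4.5 had 31.8 and 35.9 units. NPF4.2, NPF4.4 and NPF5.13 were below the control level on at least 1 array.

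**Figure D3:**
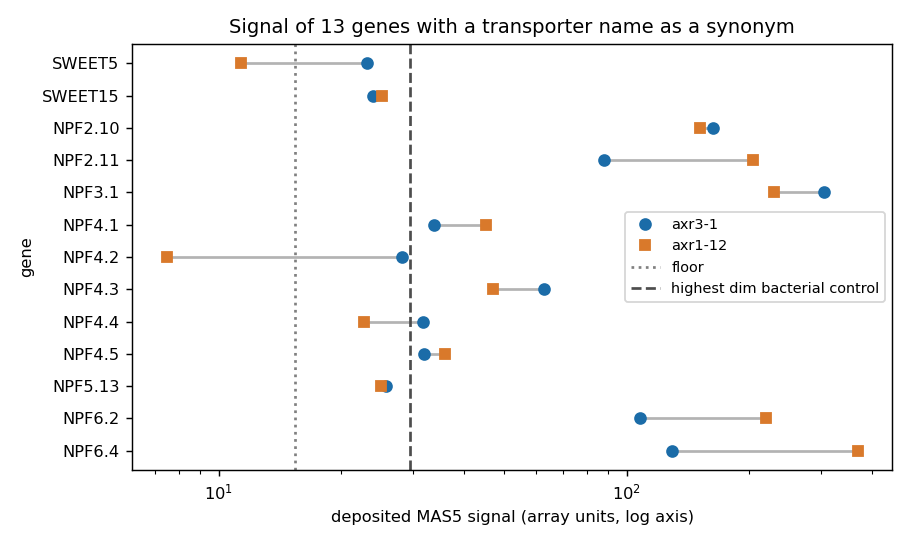
Deposited MAS5 signal in array units (log axis) of the 13 genes that carry a SWEET or NPF name as a synonym, with a circle for the axr3-1 array and a square for the axr1-12 array; the dotted line is the floor and the dashed line the highest dim bacterial control. NPF6.4, NPF2.11 and NPF6.2 have the axr1-12 square far to the right of the axr3-1 circle, and SWEET5 and SWEET15 lie left of the dashed line.

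A list of other transporter stems, written down by symbol, gave 23 probe sets of 22 genes, of which some, such as GAT1_2.1, a glutamine amidotransferase, are no transporters. Of its probe sets 10 passed the filter and none differed 2-fold. Over all probe sets past the filter, 3.28% were at least 2-fold lower in axr1-12 and 3.10% at least 2-fold higher. With 10 probe sets the list is too short to be set apart from those shares. The log2 differences of the 10 ran from -0.45 to 0.32, with a median of -0.08. These figures include PHOS32 and PHOS34, which entered through the stem PHO and are no transporters by name. PHOS34 sets the upper end, and the next highest was GLR1.4 at 0.23. The list also holds the vacuolar sugar importers, which share a membrane and a substrate class with SWEET16 and SWEET17. TMT2 had 189 units in axr3-1 and 140 units in axr1-12, 1.37-fold lower, and TMT1 had 137 and 135 units. TMT3 was below the filter at 33.0 units in axr3-1 and 41.3 units in axr1-12. Proton pump subunits VHA-A2 and VHA-A3 of the vacuole membrane were 1.11- and 1.24-fold lower in axr1-12, both inside the disagreement between probe sets. Among the vacuolar sugar genes past the filter, SWEET17 and TMT2 were lower in axr1-12 by more than this disagreement. TMT1 lay inside it at -0.04, and SWEET17 also fell inside, at -0.36, with a pseudocount. Below the filter, TMT3 and SWEET2 were higher in axr1-12, with log2 differences of 0.30 and 0.16, and SWEET16 was lower at -0.14. Of all probe sets past the filter 40.3% lay outside the disagreement, so SWEET17 and TMT2 are not read as a vacuolar pattern.

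**Figure D4:**
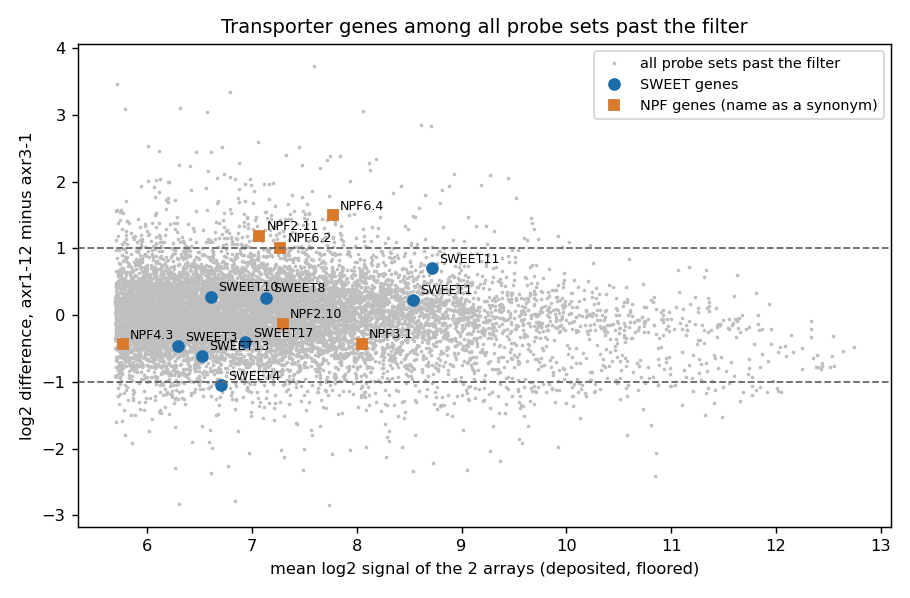
Log2 difference, axr1-12 minus axr3-1, against mean log2 signal of the arrays for all 11373 probe sets past the filter (grey dots), with the 8 SWEET genes as circles and the 6 NPF genes as squares; dashed lines mark 2-fold. SWEET4 lies just under the lower line, NPF6.4, NPF2.11 and NPF6.2 lie at or above the upper one, and the other marked genes lie between the lines. Of all probe sets past the filter, 373 are at least 2-fold lower in axr1-12 and 352 at least 2-fold higher.

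The arrays were alike in overall level, with median signals of 51.8 units in axr3-1 and 52.3 units in axr1-12. Log2 signals of probe sets past the filter correlated at r = 0.905, a value over probe sets that are no independent replicates. All 18 probe sets of the hybridisation spikes were lower on the axr1-12 array, with a median log2 difference of -0.61. The control for cytosolic 25S ribosomal RNA had 1101 units in axr3-1 and 549 units in axr1-12, also lower in axr1-12. After scaling, 50.0% of all probe sets past the filter were higher in axr1-12 and 50.0% lower. The direction of a single gene is therefore not read against that of these controls. The part of the hybridisation in the SWEET and NPF differences was not tested.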

How the data were processed

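Total RNA of axillary buds was measured on 1 single-colour array per line, whose line was taken from the source name. The deposited intensities are 1 linear MAS5 signal per probe set, as the submitters' processing notes name it without a version. Trimmed means (2% off each end) were 100.01 on both arrays, so the arrays had been scaled. Each array has 22810 probe sets, 64 of them controls, which were left out of the comparison. The platform's GEO annotation gave 13513 probe sets with 1 gene. All 25 symbols matched a locus in the TAIR10.1 RefSeq table.

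Signals of the axr1-12 array were divided by the median ratio between arrays (log2 shift 0.021), signals were floored and log2 differences taken as axr1-12 minus axr3-1 (numpy 2.4.6, pandas 2.3.3), so folds differ by 1.48% from ratios of printed signals. The threshold was 2-fold. The code was tested on simulated data. Members, lists and classes were chosen with earlier results of these data known; every member past the filter was named. The number of arrays limits all precision. Alternatives were other scalings (statsmodels 0.14.6, loess span 0.3), floors, filters, thresholds and memberships. No sequences are shown.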

Additional observations from a re-analysis of the deposited data

Results flagged for a closer look

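One probe set outside the comparison gave signal above the dim bacterial controls, whose highest value was 29.4 units. It is assigned to 2 genes, 1 of them with a purine permease symbol, and was left out because its signal cannot be given to either gene. It had 69.3 units in axr3-1 and 138 units in axr1-12.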

How the results depend on the processing

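With 1 array per line, no leave-one-out value exists. No paired analysis was possible because each line has a single array. The count of transporter genes at least 2-fold lower in axr1-12, 1 (SWEET4), stayed at 1 under quantile and loess scaling and the deposited scale. Leaving out the floor could not change it, because all genes past the filter lay above the floor on both arrays. The count became 0 with a pseudocount of 16, 2 without a filter (NRT2.5 being the second), and 0 at 3-fold and 2 at 1.5-fold. The count at least 2-fold higher, 0, became 1 at 1.5-fold and 3 with the synonym genes, an alternative chosen after seeing the data. The median of all genes past the filter, -0.09, which is also the sugar class median, stayed between -0.11 and 0.00 under the other alternatives without synonym genes, but was 0.25 with the filter at the 67th percentile, over 6 genes. The 25 genes without a filter had a median of 0.00 and the 14 sugar genes 0.10, and with synonym genes the median over 14 genes was 0.053. These filter and synonym settings leave the log2 difference of each gene as it was, and only the genes counted change. At the 67th percentile SWEET3 and SWEET13 dropped out, both lower in axr1-12. All members had plain _at probe sets and 1 probe set a gene, and none was a known non-transporter by name, so those alternatives changed nothing. Of 70 alternative values for 14 genes, none changed sign, and the largest move was 0.14. The values without a floor are among the 70 and equal the main ones for the same reason as above. A pseudocount added to both signals cannot change a sign. The deposited scale moves each gene by the log2 shift of 0.021, less than the smallest difference, -0.13 for NPF2.10. Only quantile and loess scaling could therefore have changed a sign. The values of NPF6.2 were 0.98 under quantile and loess scaling and 0.91 with a pseudocount.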
